A study of Homo sapiens with 24 samples.

Results

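The histone genes described here are the 72 genes of the array annotation whose symbols begin with H1-, H2AC, H2BC, H3C or H4C, out of 20046 genes read by a probe that names 1 gene. They comprise 9 linker histone H1 genes, 17 H2A, 18 H2B, 13 H3 and 15 H4 genes, chosen by name alone, and each is read by its brightest probe in a cell line. A total of 66 of them have 1 probe, 3 have 2 and 3 have 3.

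The series holds 24 arrays (Illumina HumanHT-12 V4) of 3 established human cell lines, T24 (bladder carcinoma), HL60 (promyelocytic leukemia) and HCT116 (colorectal carcinoma). Every line has 2 arrays each of untreated control cells, cells on clorgyline, cells on 5-Aza-CdR and cells on the combination of these agents. Clorgyline blocks monoamine oxidases and also LSD1, the enzyme that removes methyl groups from lysine 4 of histone H3. 5-Aza-CdR is a cytidine analog that traps DNA methyltransferases. The 5-Aza-CdR pulse lasted 24 hours, at 1 µM in T24, 0.1 µM in HL60 and 0.3 µM in HCT116, and clorgyline was renewed daily at 10 µM. Arrays were made at day 18 for T24 and HL60 and at day 20 for HCT116. Nothing in the sources used here says that the 2 arrays of a condition came from separate cultures. The spread behind each p-value is therefore that between arrays and may be technical.

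Histones package DNA into nucleosomes. An octamer of H2A, H2B, H3 and H4 holds the DNA, and H1 binds the linker between nucleosomes. The replication-dependent genes lie in clusters, are transcribed mainly in S phase, have no introns in most cases and give mRNAs that end in a stem-loop and not in a poly(A) tail. Some of them also give polyadenylated transcripts in cells that have left the cycle or begun to differentiate. In the GRCh38.p14 annotation, 55 of the 72 genes lie in the cluster on chromosome 6, 11 in the large cluster on chromosome 1, 2 in a smaller cluster on the same chromosome and 4 elsewhere. Histone genes are alike in sequence within a class, and a probe may bind transcripts of more than 1 of them. In particular, H2AC18 and H2AC19, and H4C14 and H4C15, are near-identical copies, and their values cannot be separated with certainty.

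Replicate arrays correlated at 0.966 to 0.997 over all probes. Markers of the labelled line were mixed in T24, and the control arrays labelled HCT116 stood apart from the treated arrays of that label. The uroplakin genes of urothelium UPK1A, UPK2 and UPK3A read 7.96 to 8.21 in the arrays labelled T24, where the median of all probes was 8.09, while EPCAM, an epithelial adhesion molecule, read 12.54 to 12.95. Of the bladder or mesenchymal list, CAV1 read 11.21 to 11.92 there, VIM 9.91 to 11.94, CAV2 9.64 to 10.48 and AXL 8.98 to 9.69. KRT34 read 8.08 to 9.34, CDH2 8.03 to 8.45 and LOXL2 7.98 to 8.03. Of the colon or epithelial list, VIL1, CDX1, LGALS4 and ASCL2 read 7.98 to 8.20 in these arrays. CLDN7 read 9.13 to 9.54, CDH1 8.33 to 9.07, CDX2 8.40 to 8.69 and ELF3 8.34 to 8.55. ESRP1 read 8.24 to 8.45, KRT20 8.08 to 8.58 and TSPAN8 8.11 to 8.25. Of the arrays labelled HCT116, the 2 control arrays read 7.84 to 7.88 for EPCAM and 10.87 to 11.46 for the mesenchymal cadherin CDH2, and the 6 treated arrays read 11.91 to 12.57 and 7.56 to 8.04. These control arrays correlated at 0.90 to 0.913 with the treated arrays of the same label, which in turn correlated at 0.969 to 0.994 with the arrays labelled T24. The testis antigen gene GAGE12G, which read 12.24 to 13.99 in the 5-Aza-CdR and combination arrays labelled T24 or HL60, read 11.68 and 10.95 in the HCT116-labelled clorgyline arrays and 7.61 to 7.69 in the other 6 arrays of that label. For HCT116, treated arrays are therefore set beside their controls as values with no test, and conditions are named as the labels give them. The HL60 arrays read 15.75 to 15.95 for the granule enzyme gene MPO.

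Most of the histone genes were dim on these arrays. Above the median of all probes were 31 of the 72 in T24, 35 in HL60 and 33 in HCT116, against 63.5%, 62.7% and 63.6% of all genes, and 9 in each line exceeded the 75th percentile. H4C3, which encodes the core histone H4, stood at the 99.7th percentile in all 3 lines. It was followed by H2BC12, an H2B gene, at the 95.3rd percentile in T24, the 91.1st in HL60 and the 94.6th in HCT116. The other members above the 75th percentile in every line were H1-2, H1-10, H2AC18, H2AC19, H2AC20 and H2AC25, joined by H2BC5 in T24 and HCT116 and by H4C12 in HL60. In a standard poly(A)-primed labelling, stem-loop mRNAs are poorly copied; the primer used is not given in the sources used here.

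In the arrays labelled T24, a small set of histone genes rose with the combination, among them H2BC12 6.56-fold, H2BC5 4.35-fold, the linker histone gene H1-2 4.22-fold and H2AC19 3.52-fold. Of 72 members, 13 were called higher than in control cells at an adjusted p under 0.05 (limma, Benjamini-Hochberg over all genes), where 3.12% of all genes were called higher. None was called lower, where 2.57% of all genes were. An unadjusted p under 0.05 in either direction was reached by 23 members and by 20% of all genes. The 13 comprised 1 of 9 H1 genes, 5 of 17 H2A genes, 4 of 18 H2B genes, 0 of 13 H3 genes and 3 of 15 H4 genes. At the limits named in the study's methods, a raw p below 0.01 with more than a 2-fold change, 6 members were higher, where 0.334% of all genes were.

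The H2B genes gave the largest rises. H2BC12 read 9.52 and 9.48 in the control arrays, 9.44 and 9.91 with clorgyline, 9.77 and 9.50 with 5-Aza-CdR, and 12.14 and 12.28 with the combination. H2BC5 read 8.64 and 8.60 in control arrays, 8.73 and 8.72 with clorgyline, 9.02 and 9.08 with 5-Aza-CdR, and 10.73 and 10.75 with the combination. In both genes the 2 combination arrays lay above all other arrays with no overlap, and the means of the single-agent conditions were at most 0.43 above the control mean. The log2 change against control was 2.71 (SE 0.17) for H2BC12 (adjusted p = 0.00133, limma) and 2.12 (SE 0.03) for H2BC5 (adjusted p = 4.88e-06, limma). A second probe of H2BC12 changed by 1.65. A second probe of H2BC5 changed by 1.08, and the third, which lies on another transcript and near the median of all probes, changed by 0.03.

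Of the linker histones, H1-2 alone was called. It read 8.70 and 8.65 in control arrays, 8.78 and 8.87 with clorgyline, 9.14 and 8.97 with 5-Aza-CdR, and 10.71 and 10.80 with the combination, so that the combination arrays stood clear of the other 6. The change was 2.08 (SE 0.07, adjusted p = 0.000115, limma). H1-10, an H1 variant gene outside the clusters, read 8.97 to 9.71 over the 8 arrays with both combination arrays inside that range. The germline genes H1-6, H1-7 and H1-8 and the clustered genes H1-1, H1-3, H1-4 and H1-5 read 7.96 to 8.14, and none of them passed the test in any comparison.

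Of the H2A genes, 3 in the large cluster on chromosome 1 rose the most. H2AC19 read 8.40 and 8.41 in control arrays, 8.37 and 8.48 with clorgyline, 8.49 and 8.55 with 5-Aza-CdR, and 10.16 and 10.28 with the combination (change 1.82, SE 0.06, adjusted p = 9.78e-05, limma). Its near-copy H2AC18 read 8.32 and 8.34 in control arrays and 10.18 and 9.51 with the combination. H2AC20 read 8.24 and 8.16 in control arrays and 9.27 and 9.82 with the combination. The combination arrays of both genes stood clear of the other 6. The changes were 1.52 (SE 0.20, adjusted p = 0.0144, limma) for H2AC18 and 1.34 (SE 0.17, adjusted p = 0.0120, limma) for H2AC20. Neither call held without the first or without the second control array, and a second H2AC18 probe changed by 1.09.

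The other 7 calls were smaller. On the log2 scale H2AC6 rose by 0.55, H2BC21 by 0.43, H4C8 by 0.37, H4C14 by 0.34, H4C15 by 0.26, H2BC4 by 0.24 and H2AC11 by 0.11. The H2AC6 and H2BC4 pair is read divergently from a shared region of chromosome 6. H2BC21 read 8.20 and 8.17 in control arrays and 8.59 and 8.64 with the combination. H2AC11 is close to the array median, at 8.11 and 8.11 in control arrays and 8.24 and 8.22 with the combination. The control means of H4C8 (8.013), H2AC6 (8.045), H2BC4 (8.079) and H4C15 (8.089) lay below the median of all probes, 8.091. The H2AC11 call was lost in 14 of 16 alternatives, among them all 8 fits that left out an array, and the H4C15 call in 8 of 16. Without the first control array the count of members called higher fell from 13 to 5, and without the second it fell to 6.

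**Figure D1:**
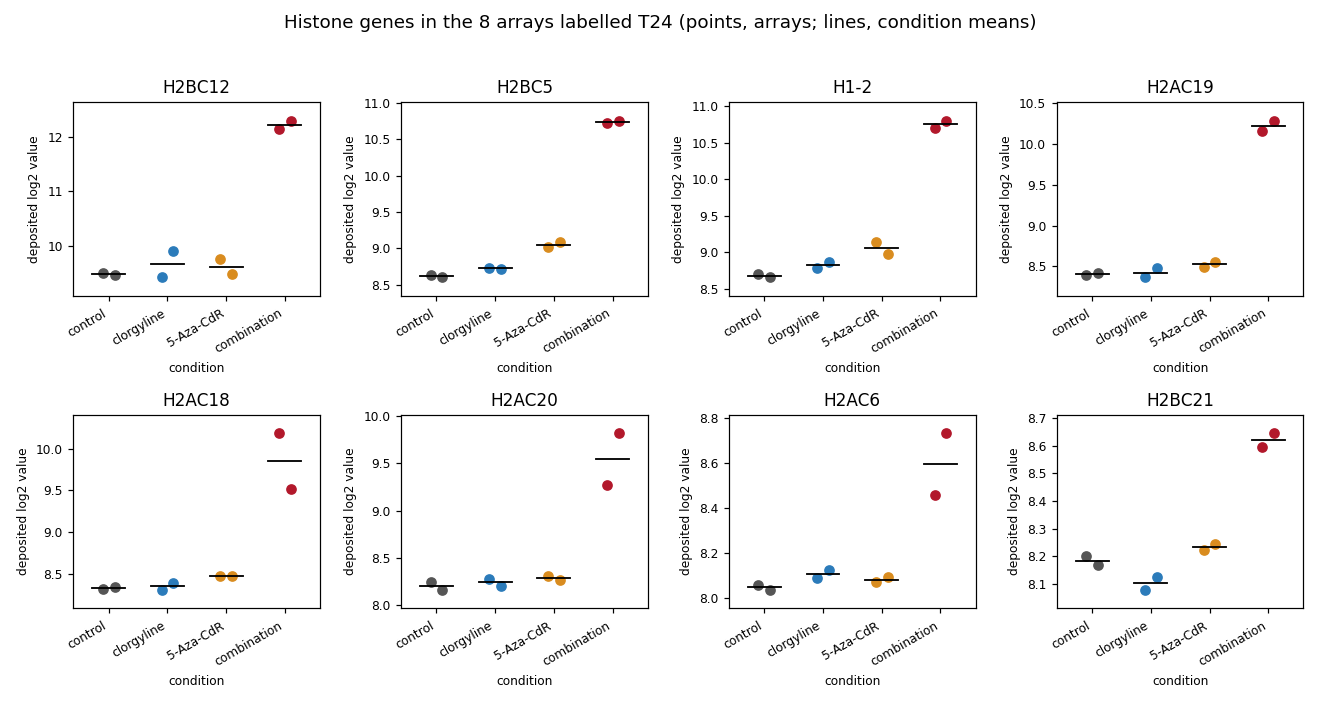
Deposited log2 value (y axis, a range of its own in each panel) of 8 histone genes in each condition (x axis) of the arrays labelled T24; each point is an array and each line the mean of 2. The 2 combination arrays lie above the other 6 arrays in each panel, at 12.14 and 12.28 for H2BC12.

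At most 1 histone gene of the arrays labelled T24 was called with a single agent. Above 0 lay 66.7% of members with clorgyline and 63.9% with 5-Aza-CdR, against 50% and 49.8% of all genes. H4C3 changed by 0.41 with clorgyline, and H1-10 by 0.43 and H1-2 by 0.38 with 5-Aza-CdR, without a call. With clorgyline no member was called, where 0.0998% of all genes were called higher and 0.359% lower; 4 members and 12.3% of all genes had an unadjusted p under 0.05, and no member passed the methods' limits. H2BC5 alone was called higher with 5-Aza-CdR, by 0.43 (SE 0.03, adjusted p = 0.0141, limma), where 0.0998% of all genes were called higher and 0.0399% lower, and this call was lost in 7 of 8 fits that left out an array. With clorgyline added to 5-Aza-CdR, 11 members were higher and 0 lower than with 5-Aza-CdR alone, where 1.65% and 1.04% of all genes were. These comparisons share their arrays. The count fell to 6 without either control, either clorgyline or either 5-Aza-CdR array. H2BC12 changed by 2.58 (SE 0.17, adjusted p = 0.00349, limma), H1-2 and H2AC19 by 1.70 each and H2BC5 by 1.69.

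In 5 members the rise was called larger than the sum of the single-agent changes. Excess over additivity on the log2 scale is the combination change minus both single-agent changes. It was called above 0 for 5 members and below 0 for none, where 0.484% and 0.0748% of all genes were. At the methods' limits it was above 0 for 6 members, where it was for 0.314% of all genes. H2AC18 had an excess of 1.35 that was not called. Its second, dimmer probe had an excess of 1.05 that passed when all probes were tested (adjusted p = 0.0185, limma). H2BC12 had an excess of 2.40 (SE 0.24, adjusted p = 0.0246, limma), H2AC19 of 1.68 (SE 0.08, adjusted p = 0.00154, limma) and H2BC5 of 1.59 (SE 0.04, adjusted p = 0.000193, limma). H1-2 exceeded additivity by 1.55 (SE 0.09, adjusted p = 0.0050, limma) and H2BC21 by 0.47 (SE 0.04, adjusted p = 0.0207, limma). Leaving out an array ended the H2BC21 call in 7 of 8 fits, the H2BC12 call in 5 and the H1-2 call in 2, those without either control array, and the replicate block ended the H2BC21 and H2BC12 calls. Without the first or the second control array the count was 2, and without the first combination array it was 8.

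Over the 72 members the median change with the combination was 0.02, against −0.0014 over all genes, and 76.4% of members lay above 0, against 48.8% of all genes. The 13 H3 genes read 7.95 to 8.22 in the 8 arrays and changed by −0.0094 to 0.07. The brightest member also stayed uncalled. H4C3 read 13.80 and 13.76 in control arrays, 14.15 and 14.23 with clorgyline, 14.01 and 13.79 with 5-Aza-CdR, and 13.69 and 12.91 with the combination, and its change of −0.48 (SE 0.24) was not called. The plot of all members shows the calls as a few points far from 0 among many at 0.

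**Figure D2:**
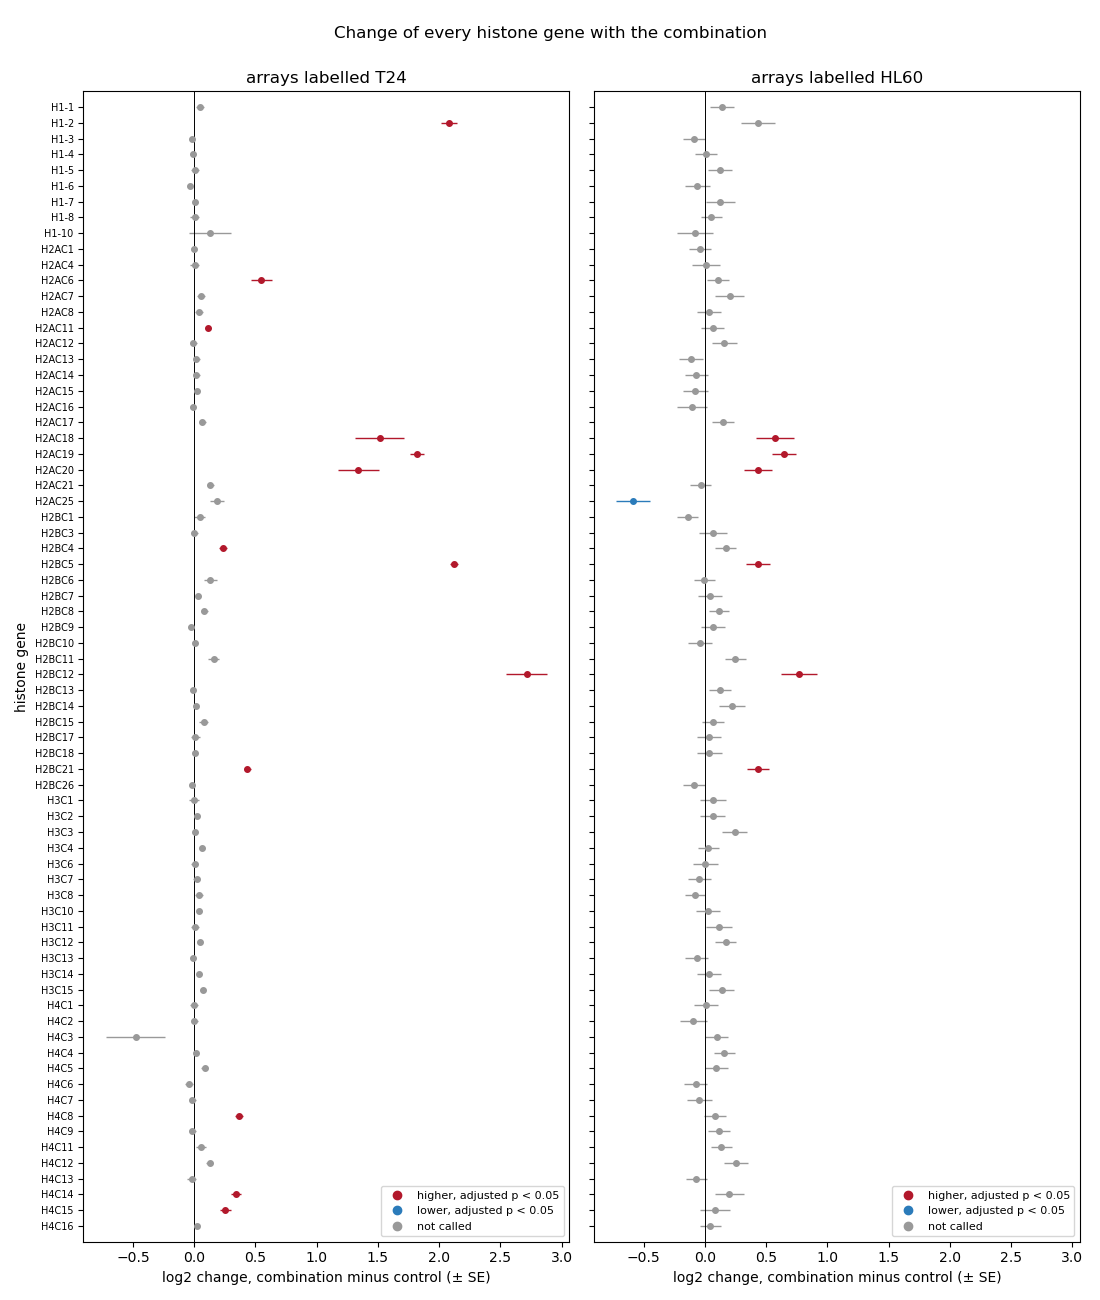
Log2 change with the combination against control (x axis, bars ± SE) of each of the 72 histone genes (y axis, ordered by class) in the arrays labelled T24 (left) and HL60 (right); red points were called higher and blue points lower. In T24, 13 genes were called higher, up to 2.71, and in HL60 6 were higher and 1 lower, all within 0.77.

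The called members lay in the chromosome 6 cluster and, at a larger share of its genes, in the large chromosome 1 cluster. In the T24 combination, 7 of 55 genes of the chromosome 6 cluster and 6 of 11 genes of the large chromosome 1 cluster were called higher. The 6 include the near-identical copies H2AC18 and H2AC19, and H4C14 and H4C15, which cannot be separated with certainty. With the HL60 combination 2 of the 55 and 4 of the 11 were called higher, where 8.7% of all genes were. Among 11 divergent H2A and H2B pairs with starts at most 1000 bases apart, both genes were called in 2 pairs, 1 gene in 1 pair and neither in 8. The starts of H2BC21 and H2AC20 lie 236 bases apart on chromosome 1, those of H2BC4 and H2AC6 246 bases apart on chromosome 6, and in both pairs both genes rose. In the pair H2BC11 and H2AC11 the second was called, by 0.11, and the first changed by 0.16 with adjusted p = 0.0984 (limma).

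The promoters of H2BC12, H2BC5, H1-2 and H2AC19, the 4 members with the largest rises in T24, are shown with that of H2BC21, whose divergent partner also rose. Each runs from 250 bases before to 50 after the annotated start, from RefSeq on GRCh38.p14, on the gene's own strand, and capitals mark ATTTGCAT (the octamer), CCAAT or TATAAA on either strand, some overlapping. H2BC12 is at chr6:27146809-27147108 (minus strand), H2BC5 at chr6:26157871-26158170 (plus strand) and H1-2 at chr6:26056421-26056720 (minus strand). H2AC19 is at chr1:149850811-149851110 (plus strand) and H2BC21, which shares most of its window with H2AC20, at chr1:149886633-149886932 (minus strand).
H2BC12: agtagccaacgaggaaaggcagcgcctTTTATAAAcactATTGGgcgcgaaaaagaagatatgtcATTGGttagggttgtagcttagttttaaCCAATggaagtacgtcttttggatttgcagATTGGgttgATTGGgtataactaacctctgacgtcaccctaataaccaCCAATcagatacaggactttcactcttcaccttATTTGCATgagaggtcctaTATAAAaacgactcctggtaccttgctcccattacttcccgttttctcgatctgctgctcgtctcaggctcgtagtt
H2BC5: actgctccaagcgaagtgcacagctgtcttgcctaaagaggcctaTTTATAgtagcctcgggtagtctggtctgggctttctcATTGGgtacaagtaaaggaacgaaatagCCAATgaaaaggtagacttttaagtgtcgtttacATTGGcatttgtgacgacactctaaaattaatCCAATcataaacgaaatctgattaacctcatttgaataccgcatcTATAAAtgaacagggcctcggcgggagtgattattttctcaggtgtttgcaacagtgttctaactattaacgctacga
H1-2: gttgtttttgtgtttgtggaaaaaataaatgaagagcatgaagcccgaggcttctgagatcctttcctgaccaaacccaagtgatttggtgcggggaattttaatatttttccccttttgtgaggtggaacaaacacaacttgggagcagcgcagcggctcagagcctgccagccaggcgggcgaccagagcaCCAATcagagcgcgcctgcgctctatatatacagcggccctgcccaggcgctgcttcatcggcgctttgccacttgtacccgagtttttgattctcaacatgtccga
H2AC19: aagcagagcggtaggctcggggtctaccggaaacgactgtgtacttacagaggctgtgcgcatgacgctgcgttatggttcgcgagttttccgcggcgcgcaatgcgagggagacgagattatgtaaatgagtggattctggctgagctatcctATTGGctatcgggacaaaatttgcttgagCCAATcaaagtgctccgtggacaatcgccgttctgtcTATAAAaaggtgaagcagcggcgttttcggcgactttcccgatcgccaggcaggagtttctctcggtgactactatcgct
H2BC21: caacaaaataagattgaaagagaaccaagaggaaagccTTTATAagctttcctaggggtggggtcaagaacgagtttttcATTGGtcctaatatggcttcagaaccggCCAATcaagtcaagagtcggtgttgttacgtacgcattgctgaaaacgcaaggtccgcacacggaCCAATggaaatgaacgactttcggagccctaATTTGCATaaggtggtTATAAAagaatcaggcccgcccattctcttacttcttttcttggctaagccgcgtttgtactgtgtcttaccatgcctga

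The octamer stood 46 bases before the start in both H2BC12 and H2BC21 and was not in the windows of H2BC5, H1-2 and H2AC19. TATAAA stood 27 to 30 bases before the start in all but H1-2. Across the 67 members with a promoter in the table, 26 held the octamer (38.8%, against 1.77% of 35116 promoters of all genes), 56 CCAAT (83.6%, against 34.6%) and 43 TATAAA (64.2%, against 11.5%). The octamer was held by 11 of 16 H2A and 14 of 18 H2B promoters, 1 of 11 H3 promoters and none of 9 H1 or 13 H4 promoters. The H3 window, listed for H3C4, is the same window as that of H2AC7 and was counted for both. Of the 13 members called higher in T24, 6 held the octamer (46.2%) and of the other 54 members 20 did (37.0%). Among the 6 are the divergent pairs H2AC20 with H2BC21 and H2AC6 with H2BC4, whose windows overlap. An octamer can be counted in both genes of a divergent pair, so these shares are not shares of separate regions. The median number of CpG dinucleotides was 15 in the 13 promoters, 9.5 in the other 54 and 14 in all promoters. A match of letters describes the window and no factor was measured.

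In the arrays labelled HL60, fewer histone genes moved and by less. With the combination, 6 of 72 members were called higher and 1 lower, where 8.7% and 8.47% of all genes were, so the members' shares were at or below those of all genes. H2BC12 rose 1.70-fold, H2AC19 1.57-fold and H2AC18 1.49-fold. H2AC25, an H2A gene of the smaller chromosome 1 cluster, fell by 0.58 on the log2 scale.

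H2BC12 read 10.26 and 10.25 in control arrays, 10.63 and 10.12 with clorgyline, 11.09 and 10.93 with 5-Aza-CdR, and 11.13 and 10.92 with the combination. The 4 arrays that had 5-Aza-CdR lay above the 4 that had none. The combination change was 0.77 (SE 0.15, adjusted p = 0.00357, limma). H2AC19 read 8.65 and 8.57 in control arrays, 9.42 and 9.19 with clorgyline, 9.06 and 8.99 with 5-Aza-CdR, and 9.24 and 9.28 with the combination (change 0.65, SE 0.10, adjusted p = 0.000905, limma). Here every treated array lay above both controls. H2AC18, its near-copy, changed by 0.57, H2AC20 and H2BC5 by 0.43 each and H2BC21 by 0.43. The other H2BC5 probes changed by 0.20 and −0.21 and did not pass, and the H2BC5 call was lost when its probes were averaged.

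H2AC25 read 9.19 and 9.49 in control arrays, 9.74 and 9.51 with clorgyline, 8.51 and 8.90 with 5-Aza-CdR, and 8.78 and 8.73 with the combination. The 4 arrays with 5-Aza-CdR lay below the other 4. The change was −0.63 (SE 0.14, adjusted p = 0.0140, limma) with 5-Aza-CdR and −0.58 (SE 0.14, adjusted p = 0.0132, limma) with the combination. The second call was lost without the second control array or either combination array. H4C3 read 15.34 to 15.78 over the 8 arrays and did not pass the test in any comparison. The 13 H3 genes, at 7.27 to 8.04, were likewise called in none.

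With 5-Aza-CdR alone, 5 members were higher and 1 lower in the arrays labelled HL60, where 5.46% and 4.94% of all genes were. H2BC12 rose by 0.76, H1-2 by 0.53, H2AC20 by 0.43, H2AC19 by 0.42 and H2BC21 by 0.34. H1-2 read 9.06 and 8.64 in control arrays, 9.39 and 9.38 with 5-Aza-CdR and 9.28 and 9.29 with the combination. Its change with the combination, 0.43 (SE 0.14), had an adjusted p of 0.0524 (limma). The other 8 H1 genes did not pass the test in HL60; H1-10 read 9.78 to 10.58 and the remaining 7 read 7.22 to 7.88. Leaving out a single control or 5-Aza-CdR array lowered the count of members higher with 5-Aza-CdR from 5 to 1 or 2.

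Clorgyline alone raised H2BC21 and H2AC19 in HL60. Of 72 members, 2 were higher and 0 lower, where 0.738% and 0.419% of all genes were. H2BC21 read 7.59 and 7.63 in control arrays, 8.50 and 8.36 with clorgyline, 7.92 and 7.97 with 5-Aza-CdR, and 8.05 and 8.03 with the combination, so clorgyline alone gave the highest arrays. Its change was 0.82 (SE 0.09, adjusted p = 0.000783, limma) and that of H2AC19 was 0.70 (SE 0.10, adjusted p = 0.00507, limma). Without the second control array or the first clorgyline array 1 member was called. With clorgyline added to 5-Aza-CdR no member was called in HL60, where 2.28% of all genes were higher and 1.87% lower; 1 member and 17.1% of all genes had an unadjusted p under 0.05, and no member passed the methods' limits. Excess over additivity was called above 0 for none and below 0 for H2BC21, at −0.73 (SE 0.12, adjusted p = 0.0361, limma), where 0.13% and 0.175% of all genes were called, and this call was lost in each of the 8 fits that left out an array.

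**Figure D3:**
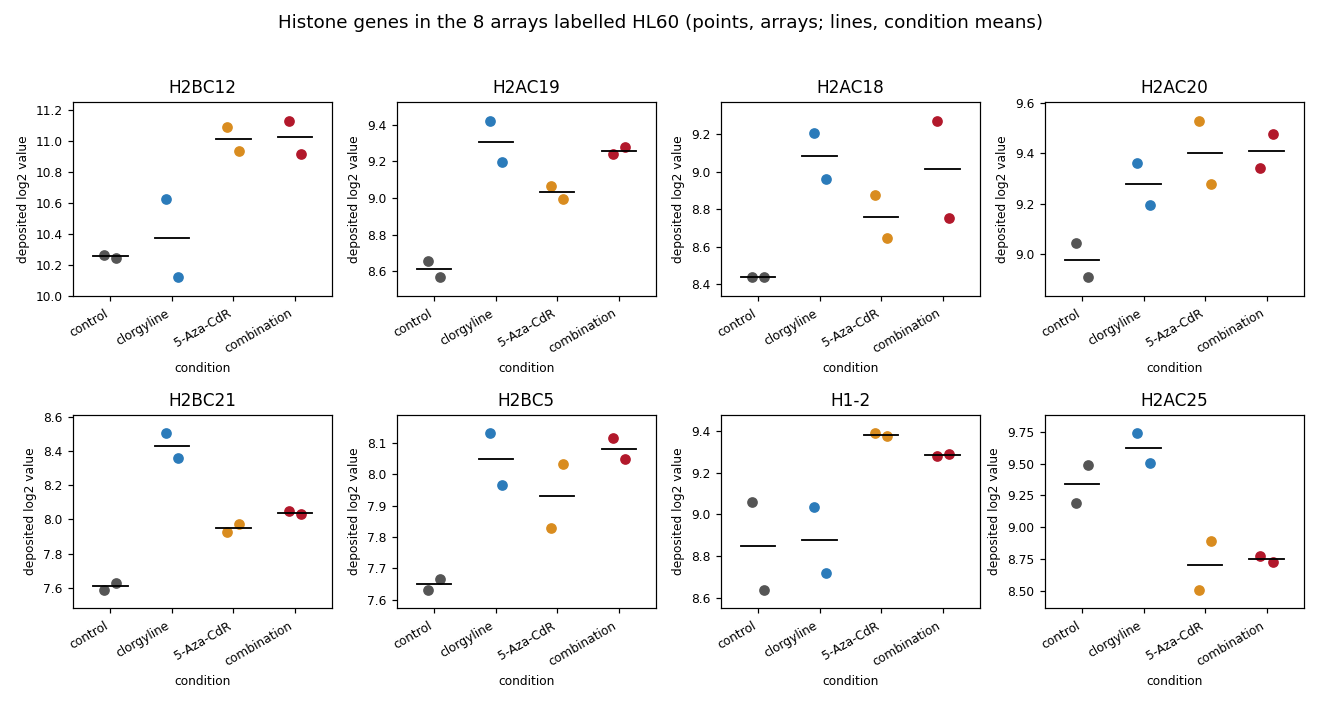
Deposited log2 value (y axis, a range of its own in each panel) of 8 histone genes in each condition (x axis) of the arrays labelled HL60; each point is an array and each line the mean of 2. H2BC12 was at 10.92 to 11.13 in the 4 arrays with 5-Aza-CdR, H2BC21 was highest with clorgyline alone and H2AC25 was lowest in the arrays with 5-Aza-CdR.

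The responses of the 2 lines were then compared directly, with 1 probe per gene for both, as the change in HL60 minus the change in T24. For the combination 9 members were lower and 0 higher, where 6.92% and 7.3% of all genes were. H2BC12 changed by 2.71 in T24 and 0.77 in HL60, a difference of −1.95 (adjusted p = 0.000289, limma). H2BC5 changed by 2.12 and 0.20, a difference of −1.92 (adjusted p = 3.33e-08, limma). This probe read 7.37 and 7.36 in the HL60 control arrays, below the HL60 median of all probes, 7.52. On the H2BC5 probe that is brighter in HL60, the changes were smaller in T24 and larger in HL60, at 1.08 and 0.43. H1-2 differed by −1.64 (adjusted p = 0.000106, limma) and H2AC19 by −1.17 (adjusted p = 3.56e-05, limma). For 5-Aza-CdR 0 members were higher and 3 lower, where 3.51% and 2.72% of all genes were. Among the 3 was H2BC5, again on the probe that is dim in HL60. On the probe brighter there, H2BC5 changed by 0.20 in T24 and 0.28 in HL60. For clorgyline 2 were higher and 0 lower, where 1.67% and 1.11% were: H2BC21 by 0.90 and H2AC19 by 0.68. The lines differ in 5-Aza-CdR dose, so line and dose cannot be told apart in the 5-Aza-CdR and combination responses. The clorgyline dose was the same. Values were normalized within a line, with another version of the authors' software for HL60. Line and processing therefore cannot be told apart in any of these responses.

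In the arrays labelled HCT116, H2BC12, H2BC5 and H1-2 were high in the pair labelled clorgyline. H2BC12 read 9.25 and 8.57 in the control arrays, 11.17 and 10.84 in those labelled clorgyline, 8.71 and 9.16 in those labelled 5-Aza-CdR, and 9.38 and 9.72 in those labelled combination. H2BC5 read 8.24 and 7.64, 9.52 and 9.64, 8.07 and 8.12, and 8.45 and 8.45 in the same order. H1-2 read 8.80 and 8.23 in the control arrays, 9.72 and 9.85 with the clorgyline label, 8.31 and 8.40 with the 5-Aza-CdR label, and 8.58 and 8.42 with the combination label. In each of these genes the clorgyline-labelled arrays lay above the other 6, and these are the arrays in which GAGE12G was high. They correlated at 0.984 to 0.989 with the T24-labelled 5-Aza-CdR arrays, at 0.985 to 0.989 with the T24-labelled combination arrays and at 0.979 to 0.983 with the T24-labelled clorgyline arrays. The 5-Aza-CdR-labelled arrays correlated at 0.991 to 0.994 with T24-labelled clorgyline arrays and at 0.98 to 0.985 with T24-labelled 5-Aza-CdR arrays. The combination-labelled arrays correlated at 0.987 to 0.992 with T24-labelled control arrays and at 0.986 to 0.993 with clorgyline arrays. With T24-labelled combination arrays they correlated at 0.969 to 0.979. The part of the labelling in these values was not tested.

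Against the clorgyline-labelled arrays, 4 members were lower and 0 higher in the 5-Aza-CdR-labelled arrays, where 0.574% and 0.0748% of all genes were. H2BC5 differed by −1.49 (SE 0.19, adjusted p = 0.0488, limma), H2AC20 by −0.80 (SE 0.05, adjusted p = 0.00635, limma), H2BC21 by −0.40 (SE 0.04, adjusted p = 0.0293, limma) and H2AC6 by −0.38 (SE 0.03, adjusted p = 0.0145, limma). H2BC12 differed by −2.07 (SE 0.28, adjusted p = 0.0603, limma) and H1-2 by −1.43 (SE 0.18, adjusted p = 0.0531, limma), which did not pass. The second, dimmer probe of H2BC12 differed by −0.83 and passed when all probes were tested (adjusted p = 0.0111, limma). Leaving out either array labelled 5-Aza-CdR gave 0 calls, and leaving out any clorgyline-labelled or combination-labelled array gave 1. A fit on the 4 arrays compared, which leaves out the control arrays that stand apart, gave 3. Between the combination and 5-Aza-CdR labels no member was called, where 0% of all genes were called in either direction; 2 members and 5.43% of all genes had an unadjusted p under 0.05, and no member passed the methods' limits.

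**Figure D4:**
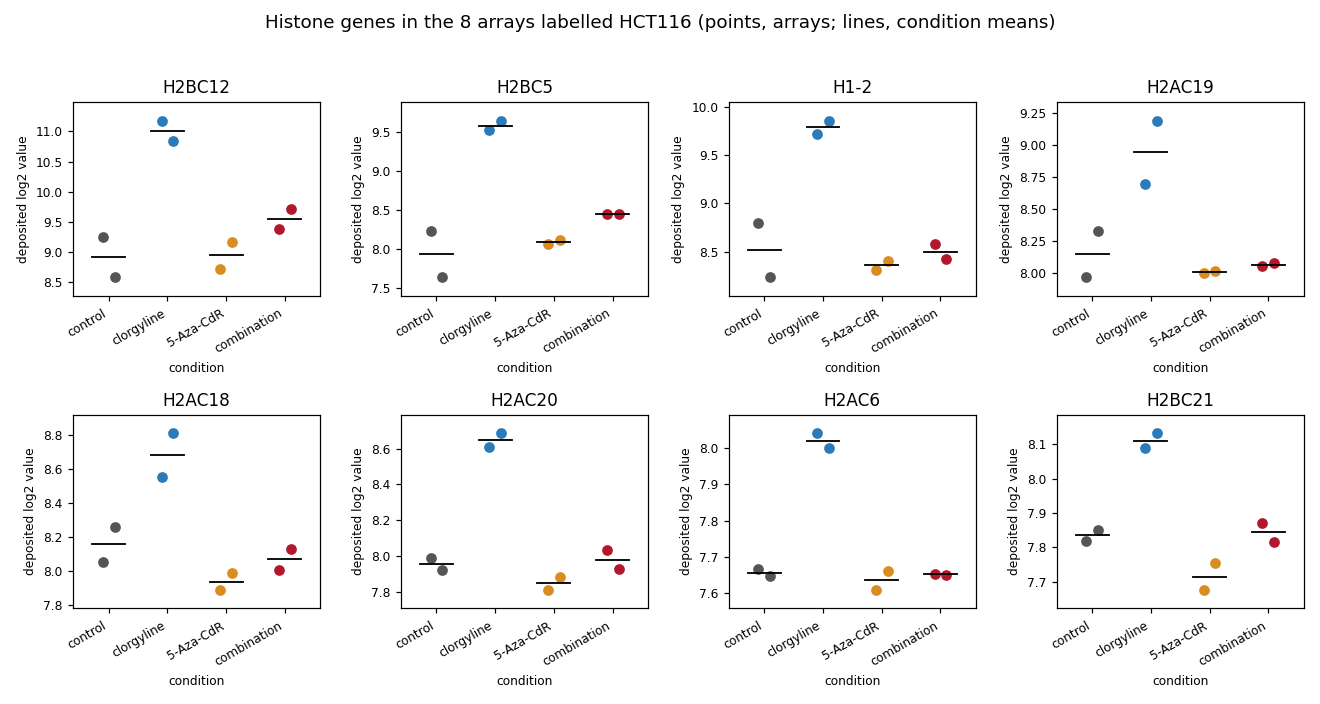
Deposited log2 value (y axis, a range of its own in each panel) of 8 histone genes in each labelled condition (x axis) of the arrays labelled HCT116; each point is an array and each line the mean of 2. The 2 arrays labelled clorgyline are highest in every panel, at 11.17 and 10.84 for H2BC12, and the control arrays carry other line markers than the treated arrays.

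Histone variants outside the rule also moved with the combination in T24. Of 13 measured, 4 were higher and 2 lower, where 3.12% and 2.57% of all genes were. H2AJ, an H2A variant gene outside the clusters whose mRNA is polyadenylated, rose by 1.23 (SE 0.07, adjusted p = 0.00115, limma), with an excess over additivity of 1.16. MACROH2A2, which encodes a large repressive H2A variant, fell by 0.82 and H3-3B, a replication-independent H3.3 gene, by 0.73, while H3-5 rose by 0.71. In HL60 3 of 13 were higher with the combination, where 8.7% of all genes were, among them H2AX by 0.53 and H2AJ by 0.49.

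Genes that serve histone gene expression were counted the same way with the T24 combination, where 3.12% of all genes were higher and 2.57% lower. Of 23 genes of histone transcription and mRNA 3′ end formation, 2 were higher with the combination, CSTF2, a cleavage stimulation factor subunit, by 0.44 and HINFP, an H4 gene activator, by 0.16. Of 23 chaperones 1 was lower, and this gene, RBBP4, fell by 0.34. None of 24 S-phase genes was called, and of 6 cyclin-dependent kinase inhibitor genes CDKN1C rose by 0.41 and CDKN2D by 0.38. In HL60 with the combination, 1 of 24 S-phase genes was higher and 9 lower, where 8.7% and 8.47% of all genes were, and CDT1, the replication licensing factor, fell by 1.72. Of the transcription and 3′ end genes 1 was higher and 5 lower. CPSF3, the endonuclease that cleaves histone pre-mRNA, fell by 0.84. Of the 6 cyclin-dependent kinase inhibitor genes 0 were higher and 2 lower in HL60, where CDKN1B changed by −0.38 and CDKN2D by −0.35. Their part in the histone changes was not tested.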

How the data were processed

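Total RNA of 24 samples was measured on Illumina HumanHT-12 V4 BeadChips. The deposited log2 values are probe intensities that the authors processed with lumi (2.6.0 for T24 and HCT116, 2.8.0 for HL60, in the submitters' notes) and normalized by robust splines within a cell line; background correction is not given in the sources used here, so changes of dim probes may be compressed. Depth does not apply to arrays, and their number limits the precision. Symbols came from the platform annotation. Of 47231 probes, 30113 name 1 gene, 8 name several and 17110 are unnamed here; 1 probe that names 2 members was left out, and 2 probes with missing HL60 values. limma 3.58.1 (R 4.3.3) fitted a mean per condition to the 8 arrays of a line (the difference between lines to 16), 1 brightest probe per gene, two-sided, with Benjamini-Hochberg adjustment over all genes, calls at 0.05. The fit was tested on simulated data. Promoters came from RefSeq (GRCh38.p14) and 67 of 72 members matched by symbol. The members and gene lists were chosen with earlier results of these data known. Named are up to 20 called members with the largest change for the combination against control and up to 8 in each other comparison, the 5 brightest members, the H1 genes in T24 and HL60, and up to 4 called genes of each other list; of the other lists a selection is given. GAGE12G, the members set beside these and the non-called values were named after their values were seen. Alternatives changed the probe rule, normalization, filter, arrays in the fit, spread estimate, replicate block, threshold and each array in turn. The normalization alternative was a second quantile normalization. Sorted values of the arrays of a line already lay within 0.00521 of each other, so it could change little and does not test the normalization. The comparison of HCT116-labelled treated and control arrays was not tested.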

Additional observations from a re-analysis of the deposited data

Results flagged for a closer look

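Responses to the same treatment differed between the arrays labelled HL60 and T24 in 14 cases, each by the direct limma test of the difference over all genes, as the change in HL60 minus the change in T24. With the combination H2BC12 differed by −1.95, H2BC5 by −1.92, H1-2 by −1.64 and H2AC19 by −1.17. H2AC18 differed by −0.94, H2AC20 by −0.91, H2AC25 by −0.77, H2AC6 by −0.44 and H4C8 by −0.28. The genes of the first 6 rose more in T24, and H2AC25 changed by −0.58 in HL60 and 0.19 in T24. With 5-Aza-CdR H2AC25 differed by −0.67, H2BC5 by −0.45 and H2BC1, a testis H2B gene, by −0.33. With clorgyline H2BC21 differed by 0.90 and H2AC19 by 0.68. H2BC1 lay at the 14.0th percentile of all probes in HL60 and the 34.8th in T24. With 5-Aza-CdR the call of H2AC25 was lost in 12 of 23 alternatives, that of H2BC1 in 9 of 22 and that of H2BC5 in 2 of 23. The H2BC5 call was lost when its probes were averaged and when all 24 arrays entered the fit. Its probe here read 7.30 to 7.39 in the HL60 control and 5-Aza-CdR arrays, below the HL60 median of all probes, 7.52. On the H2BC5 probe that is brighter in HL60, the 5-Aza-CdR changes were 0.20 in T24 and 0.28 in HL60. The combination changes on that probe were 1.08 and 0.43. With the combination H2AC18 was lost in 6 and H2AC6 in 5 of 23, H4C8, which ranked ninth by size, was not followed across the alternatives, and with clorgyline H2AC19 was lost when all 24 arrays entered the fit. The 5-Aza-CdR dose differed between the lines, so line and dose cannot be told apart in the 5-Aza-CdR and combination responses. Normalization within a line and the software version also differed, so line and processing cannot be told apart in any of the 14 cases.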

How the results depend on the processing

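No named member changed sign under any alternative run, and of 1044 alternative values for called members 826 kept the call and 218 lost it. The 826 include values from the second quantile normalization, which could change little because the arrays of a line already shared nearly the same distribution. H2BC12, H2BC5, H1-2 and H2AC19 kept their calls for the T24 combination against control and against 5-Aza-CdR under every alternative run. Of 518 alternative counts, 422 equalled the reported count or lay within 1.5 times it, and 96 did not. The 422 include reported counts of 0 that stayed 0, so they do not measure how stable the calls were. At the methods' limits the T24 count of higher members was 0 for 5-Aza-CdR, 6 for the combination against control and 6 against 5-Aza-CdR, and in HL60 it was 0 for clorgyline, 5-Aza-CdR and the combination, with 0 lower for 5-Aza-CdR, the combination and the excess. Fits restricted to the conditions compared gave, in T24, 1 higher for clorgyline, 0 for 5-Aza-CdR, 8 for the combination and 4 against 5-Aza-CdR. A robust spread with a trend gave 0 higher for T24 5-Aza-CdR, 9 for the T24 excess, 4 for HL60 clorgyline, 2 lower for HL60 5-Aza-CdR and 8 lower for HCT116. Averaging probes gave 0 higher for T24 5-Aza-CdR, and averaging probes or fitting all 24 arrays gave 1 lower for the clorgyline difference between lines and 1 higher for the 5-Aza-CdR difference. Only genes above the median of all probes gave 0 lower for the HL60 excess. Replicate numbers were no sign of pairing, since same-numbered arrays deviated with correlations of −0.12 to 0.21; with the replicate block the count was 0 for T24 5-Aza-CdR, 7 for the T24 combination against 5-Aza-CdR, 3 for the T24 excess, 2 lower for HL60 5-Aza-CdR and 2 lower for HCT116. Leaving out 1 array gave, for higher members in T24, 0 to 1 with 5-Aza-CdR, 5 to 12 with the combination, 6 to 10 against 5-Aza-CdR and 2 to 8 for the excess, and for lower members 0 to 1 with the combination, 0 to 1 against 5-Aza-CdR and 0 to 1 for the excess. In HL60 it gave 1 to 3 higher with clorgyline, 1 to 5 higher and 0 to 1 lower with 5-Aza-CdR, 0 to 1 lower with the combination and 0 to 0 lower for the excess. In HCT116 it gave 0 to 6 lower. For the differences between lines it gave 2 to 4 higher and 0 to 1 lower with clorgyline, 0 to 2 higher and 1 to 3 lower with 5-Aza-CdR, and 0 to 2 higher with the combination; leaving out the second HL60 control gave 4, 2 and 2 higher. A lone array left in a condition was taken to vary like the others. The cause of these moves was not tested.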
